A study of Homo sapiens with 6 samples.

Results

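Of the mature miRNAs measured in HEK 293T cells, hsa-miR-504-5p, hsa-miR-887-3p, hsa-miR-208a-3p and hsa-miR-873-5p are described here. They are 4 of 1000 listed miRNAs, and they were chosen by their counts, which were low or 0 in wild type cells and higher in cells without TUT4 and TUT7. The knockout and wild type values of the 4 miRNAs, and of the other arms of their hairpins, are therefore given as a description and without a test. The study sequenced small RNA from HEK 293T, an immortalised line of human embryonic kidney cells, in 3 libraries of wild type cells and 3 libraries of a strain in which both TENT3A (TUT4) and TENT3B (TUT7) are knocked out. No treatment was applied to either strain, and both were kept in the same medium with serum. The knockout (ΔTUT4/7) is 1 strain obtained from another laboratory, so a property of that strain and an effect of the missing enzymes cannot be told apart. The deletion itself cannot be checked in a table of mature miRNAs.

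A miRNA is cut from the stem of a hairpin, its precursor, and either arm of the stem (5p or 3p) can be loaded into an Argonaute protein, where the seed near its 5′ end pairs with target mRNAs. TUT4 and TUT7 are terminal uridylyltransferases that add uridines to the 3′ ends of RNAs, among them the precursors of the let-7 family and mature miRNAs. Many miRNAs lie in introns of protein-coding genes and are made from the same primary transcript as their host.

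The mature sequences of 3 of the 4 miRNAs and the 3 hairpins they come from are shown because the arms are counted separately and the seed defines the family of each miRNA. They are given 5′ to 3′ from RefSeq (assembly GRCh38.p14), with the seed, bases 2 to 8, in capitals in the mature sequences and both mature arms in capitals in the hairpins.
miR-504-5p: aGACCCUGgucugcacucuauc
miR-208a-3p: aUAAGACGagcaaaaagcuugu
miR-873-5p: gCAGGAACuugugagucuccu
miR-873-3p: gGAGACUGaugaguucccggga
MIR504: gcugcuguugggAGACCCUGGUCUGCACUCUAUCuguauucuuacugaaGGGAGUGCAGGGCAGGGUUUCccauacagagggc
MIR208A: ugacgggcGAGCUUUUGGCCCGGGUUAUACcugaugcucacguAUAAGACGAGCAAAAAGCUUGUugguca
MIR873: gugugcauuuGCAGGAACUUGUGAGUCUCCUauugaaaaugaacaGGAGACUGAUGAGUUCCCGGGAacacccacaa

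All 4 hairpins lie in introns of protein-coding genes, on the strand of the gene. In hg38, miR-504-5p lies at chrX:138667760-138667781 on the minus strand, in an intron of FGF13, which encodes a fibroblast growth factor homologue of neurons that stays inside the cell. miR-887-3p lies at chr5:15935229-15935250 on the plus strand, in an intron of FBXL7, which encodes an F-box protein of a ubiquitin ligase. The host of miR-208a-3p, at chr14:23388602-23388623 on the minus strand, is MYH6, the gene of the α-myosin heavy chain of heart muscle. The host of miR-873-5p, at chr9:28888925-28888945 on the minus strand, is LINGO2, which encodes a membrane protein with leucine-rich repeats. The 4 miRNAs are thus on 4 different chromosomes, and no other miRNA of the table lay within 10 kb of any of them. The nearest listed miRNA was 1109.2 kb away (miR-4637, from miR-887-3p) in the closest case and 4578.9 kb away (miR-6851-3p, from miR-873-5p) in the farthest.

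The libraries held between 4338558 and 7967606 counts, with wild type replicate 2 the deepest. Levels are given as CPM, counts per 1000000 counts of the library. In a library, 3 counts, the number still compatible with a count of 0, correspond to 0.377 to 0.691 CPM. Within each strain the replicate libraries differed by more than counting error, and more so in wild type (chi-square per degree of freedom over all miRNAs 117.9 to 355.6) than in ΔTUT4/7 cells (15.96 to 66.95). The labels call the libraries biological replicates.

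Of the 4 miRNAs, miR-887-3p was the most abundant in both strains. It had 534, 555 and 748 counts in the 3 ΔTUT4/7 libraries and 22, 22 and 25 counts in the 3 wild type libraries. All 3 knockout libraries thus lay above all 3 wild type libraries, with the third knockout library the highest of the 6. Such a separation was seen for each of the 4 miRNAs, as their selection would give, and for 28.8% of all 826 tested miRNAs in this direction. In CPM, hsa-miR-887-3p had 126.7 ± 28.9 in ΔTUT4/7 against 4.50 ± 1.56 in wild type (SD, both n = 3). The pooled ratio was 30.5, with a 95% interval from counting error of 24.0 to 39.4, and the fitted log2 fold change was 4.87 (standard error 0.30). In rank of mean CPM among the 1000 listed miRNAs, it was 474th in wild type and 178th in ΔTUT4/7 cells.

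miR-504-5p had the highest fold of the 2 that were counted in wild type cells. It had 276, 290 and 309 counts in the ΔTUT4/7 libraries and 1, 10 and 4 counts in the wild type libraries. The knockout libraries were close to each other, while the wild type counts were so few that the first replicate held a single count. The level of hsa-miR-504-5p was thus 60.2 ± 5.75 CPM without TUT4/7 against 0.801 ± 0.525 CPM with them (n = 3 libraries each, SD). The pooled ratio was 66.9 (95% counting interval 40.4 to 120.1) and the fitted log2 fold change 6.06 (standard error 0.34). The size of this fold depended on single wild type libraries. The fitted fold was 66.6 with all libraries and 100.6 without wild type replicate 2, which holds 10 of the 15 wild type counts. Without wild type replicate 1 the fitted log2 fold change was lower, at 5.71. By rank, miR-504-5p was 769th in wild type and 230th in ΔTUT4/7 cells.

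miR-208a-3p, a miRNA of heart muscle, was not counted in wild type cells and was sparse in ΔTUT4/7 cells. It had 6, 11 and 10 counts in the ΔTUT4/7 libraries and 0, 0 and 0 counts in the wild type libraries. Every knockout library thus held more than the 3 counts that a count of 0 allows, and no wild type library held any. The knockout level of hsa-miR-208a-3p was 1.87 ± 0.598 CPM (SD, n = 3). With 3 counts in the pooled wild type total as the floor (0.179 CPM), miR-208a-3p was at least 10.3-fold higher in ΔTUT4/7 cells. This bound takes the ΔTUT4/7 counts as they are and leaves out their counting error. Without the deepest wild type library the floor is higher and the bound falls to at least 5.40-fold.

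miR-873-5p had the same pattern at a similar level, with 6, 8 and 8 counts in the ΔTUT4/7 libraries and 0, 0 and 0 counts in the wild type libraries. The knockout level of hsa-miR-873-5p was 1.52 ± 0.291 CPM (SD, n = 3). Against the same floor it was at least 8.41-fold higher in ΔTUT4/7 cells, and at least 4.40-fold higher without wild type replicate 2. The spread of both sparse miRNAs among the knockout libraries was no wider than counting error, with a coefficient of variation of 32.0% for miR-208a-3p against 33.3% from counting alone, and of 19.2% for miR-873-5p against 36.9%. The abundant members varied by more than that, by 22.8% for miR-887-3p against 4.04% and by 9.56% for miR-504-5p against 5.86%.

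**Figure D1:**
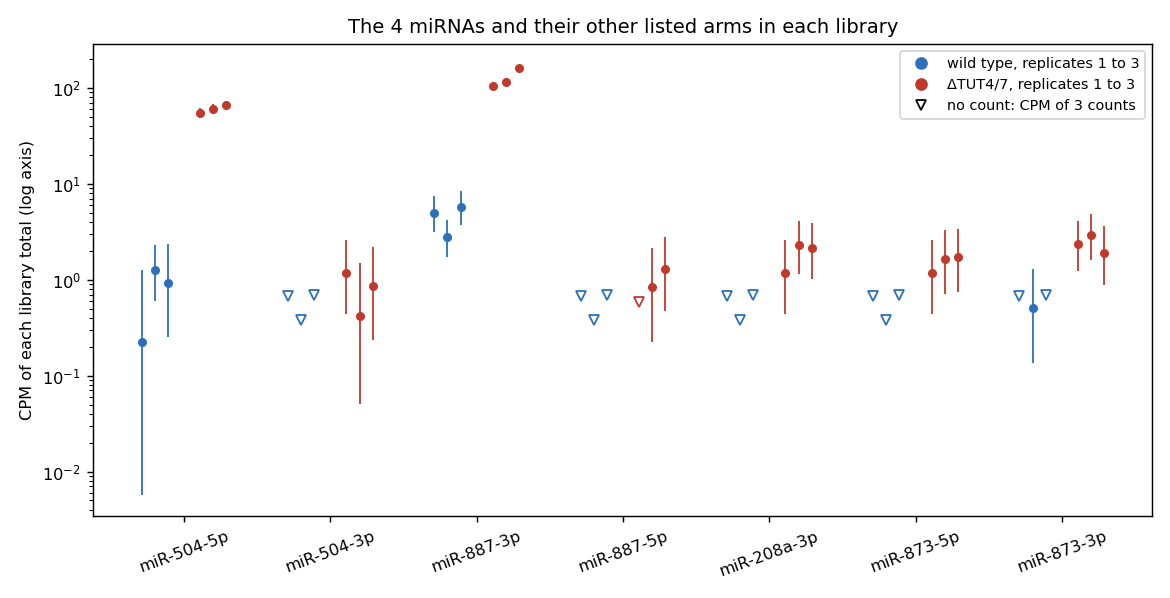
CPM of the 4 miRNAs and of their 3 other listed arms in each library (log axis), with wild type in blue, ΔTUT4/7 in red, and vertical bars for the 95% counting interval of each library. An open triangle marks a library with no count and is drawn at the CPM of 3 counts. The ΔTUT4/7 points of miR-504-5p lie between 54.4 and 65.9 CPM and those of miR-887-3p between 105.2 and 159.5 CPM, above all wild type points, while miR-208a-3p and miR-873-5p have open triangles in all 3 wild type libraries.

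In ΔTUT4/7 cells the order of the levels was miR-887-3p, miR-504-5p, miR-208a-3p and miR-873-5p. All reads were trimmed to 18 nt and a count is per mature miRNA whatever its length, so these levels need no correction for length. Other effects of sequence on counting were not corrected, so the order is one of counts. miR-887-3p was 2.11-fold above miR-504-5p, a difference of 66.5 CPM with an SD of 29.4 CPM, and the 3 libraries of each did not overlap. miR-504-5p was 32.2-fold above miR-208a-3p. The last 2 of the order did not differ beyond their spread (difference 0.350 CPM, SD 0.665 CPM), and their libraries overlapped. In wild type cells the same order held for the 2 miRNAs with counts. Together the 4 miRNAs took 0.0162% to 0.0229% of the counts of a ΔTUT4/7 library and 0.000402% to 0.000668% of those of a wild type library. Since the RNA came from whole cultures, a change in each cell and a change in the number of cells that make the miRNA cannot be told apart.

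The depth of the wild type libraries bears differently on the 4 miRNAs. At the pooled ΔTUT4/7 rate, 265, 478 and 261 counts of miR-504-5p would have fallen in the 3 wild type libraries, 1004 in all, where 15 were found. For miR-887-3p the same rate gives 2108 counts, where 69 were found. For miR-208a-3p it gives 8.17, 14.8 and 8.04 counts in the 3 wild type libraries, and for miR-873-5p 6.66, 12.0 and 6.55, so that their absence rests on 31.0 and 25.2 missing counts in all. With no count found, a wild type level under 0.179 CPM remains possible for either.

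**Figure D2:**
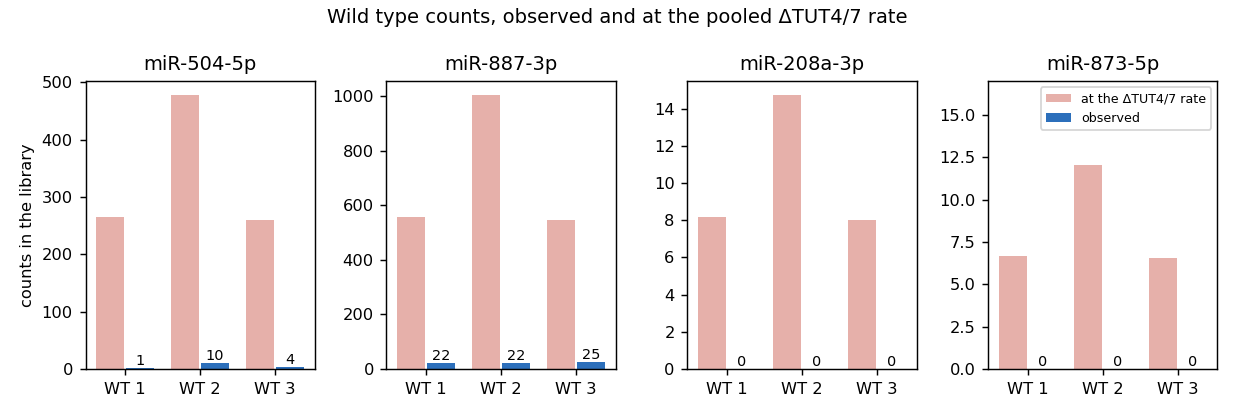
Counts in each wild type library (blue, with the number above) beside those that the pooled ΔTUT4/7 rate would give at the depth of that library (pink), on a linear axis from 0 for each miRNA. Observed counts are 1, 10 and 4 for miR-504-5p and 22, 22 and 25 for miR-887-3p, and 0 in every library for miR-208a-3p and miR-873-5p, for which 31.0 and 25.2 counts would have been found in total.

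The name switched on holds for only part of the set. miR-887-3p and miR-504-5p were counted in every wild type library, miR-887-3p at 2.76 CPM or more, and the hairpin of miR-873 gave 4 counts of its 3p arm in wild type replicate 2. Only miR-208a-3p and miR-873-5p had no wild type count. Whether the 4 are tissue-restricted cannot be judged from 1 cell line, and the name is used here only for what is known of miR-208a and of the hosts MYH6, FGF13 and LINGO2. All 4 passed the filter of a highest count above 7, but miR-208a-3p and miR-873-5p did so only through the ΔTUT4/7 libraries, in which they are high.

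Among the 1000 listed miRNAs, 12 had no wild type count, and their summed ΔTUT4/7 counts ran from 10 to 27. miR-208a-3p with 27 and miR-873-5p with 22 had the most of these 12, followed by miR-6742-5p with 19, miR-10399-5p with 15 and miR-4798-5p with 15. The opposite class was smaller, with 4 miRNAs that had no ΔTUT4/7 count, led by miR-4423-5p with 24 summed wild type counts. No miRNA of either class had more than 7 counts in each library of the other strain. The table lists only miRNAs with at least 10 counts over the 6 libraries, so that lower levels were not seen in either class.

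**Figure D3:**
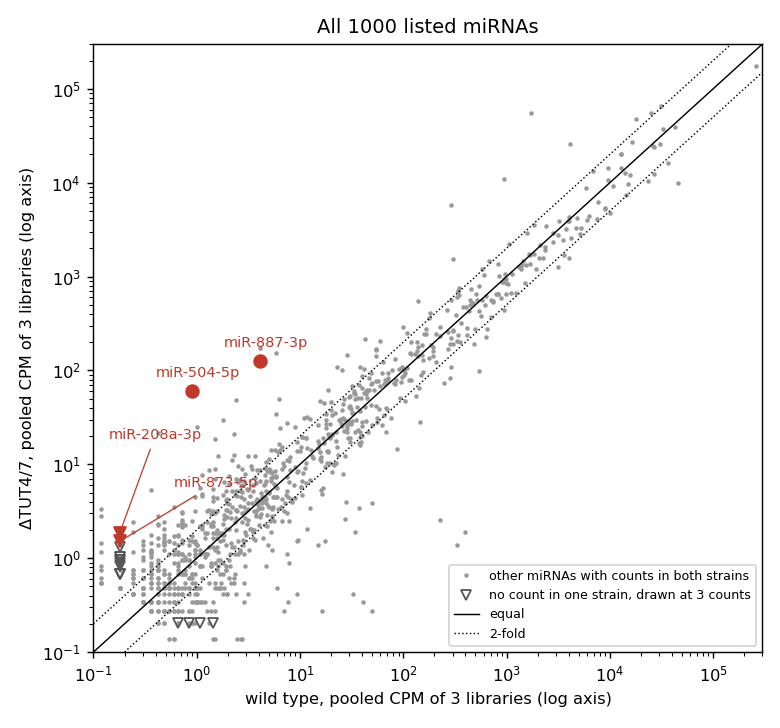
Pooled CPM of each of the 1000 listed miRNAs in wild type (horizontal) and ΔTUT4/7 cells (vertical), both on log axes, with the line of equal levels and dotted lines at 2-fold. Triangles stand for miRNAs with no count in one strain and are drawn at 3 counts of its pooled total, 0.179 CPM for wild type and 0.206 CPM for ΔTUT4/7, while miRNAs with 1 or 2 counts keep their own value. miR-504-5p and miR-887-3p (red circles) lie far above the 2-fold line, and miR-208a-3p and miR-873-5p (red triangles) are the highest of the triangles at the left.

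The other arms of the hairpins were examined next, since both arms leave the same precursor. The 3p arm of miR-504 had 6, 2 and 4 counts in the ΔTUT4/7 libraries and none in wild type, which makes it at least 4.59-fold higher. The 5p arm of miR-887 had 0, 4 and 6 counts in the ΔTUT4/7 libraries and none in wild type, and was at least 3.82-fold higher. The counting error of the few ΔTUT4/7 counts is not in these bounds. Without wild type replicate 2 they fall to 2.40-fold for miR-504-3p and 2.00-fold for miR-887-5p. Both were the minor arm of their hairpin. In ΔTUT4/7 cells, miR-504-5p made up 98.6% of the counts of both arms (Wilson 95% interval 97.7 to 99.2, 875 of 887 counts), and miR-887-3p 99.5% (99.0 to 99.7, 1837 of 1847 counts). Neither other arm had more than 7 counts in any library, so neither was fitted.

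The hairpin of miR-873 differed from these. Its 3p arm, which is not among the 4 miRNAs, had 12, 14 and 9 counts in the ΔTUT4/7 libraries and 0, 4 and 0 counts in the wild type libraries. Its groups did not overlap, and only wild type replicate 2, the deepest library, held any wild type count. The level was 2.40 ± 0.497 CPM without TUT4/7 against 0.167 ± 0.290 CPM with them (n = 3 libraries each, SD), and the pooled ratio was 10.0 (95% counting interval 3.59 to 38.9). Without wild type replicate 2 there was no wild type count, and the arm was at least 7.01-fold higher. Of the counts of both arms in ΔTUT4/7 cells, miR-873-5p took 38.6% (Wilson 95% interval 27.1 to 51.6, 22 of 57 counts), so neither arm was a clear majority. The 5p arm of miR-208a was not listed.

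The sequences of the printed miRNAs were compared with those of the other listed miRNAs that have a RefSeq sequence (897 of the 1000 listed have one). Their seeds differ from each other, and no listed miRNA with a sequence carried bases 2 to 8 of miR-504-5p, miR-208a-3p or miR-873-5p. In RefSeq, miR-4725-5p has the seed of miR-504-5p and miR-208b-3p that of miR-208a-3p, and neither is listed. Their G and C contents were 54.5% for miR-504-5p, 36.4% for miR-208a-3p and 52.4% for miR-873-5p, within the 5th to 95th percentile of the listed miRNAs with a sequence (31.8% to 72.7%, median 50%, n = 897).

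The first 18 nt, the length of a trimmed read, were also searched in hg38 for exact matches. miR-208a-3p matched its own locus only. miR-504-5p also matched chr12:47811026-47811043, on the strand opposite to HDAC7, and miR-873-5p also matched chr22:34209543-34209560, within the non-coding gene ENSG00000224404. Reads of these 18 nt cannot be told apart between the pairs of sites. The other arms, miR-504-3p and miR-873-3p, matched only their own hairpins. No listed miRNA with a sequence shared its first 18 nt with one of the 3, and the nearest, miR-3928-3p, differed from miR-873-5p at 6 positions.

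miR-208a belongs to the myosin miRNAs of heart and skeletal muscle, whose hairpins lie in introns of myosin heavy chain genes. The other 2 mature miRNAs of this group show how their seeds relate to that of miR-208a-3p, again with bases 2 to 8 in capitals.
miR-208b-3p: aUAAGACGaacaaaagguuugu
miR-499a-5p: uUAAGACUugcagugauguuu
miR-208b-3p is identical to miR-208a-3p at 19 of 22 positions and miR-499a-5p at 12 of 21, with bases 2 to 7 shared by all 3. The hairpin of miR-208b lies 29.3 kb from that of miR-208a and had no listed arm. miR-499a-5p, from an intron of MYH7B, went the other way. It had 28, 34 and 15 counts in the ΔTUT4/7 libraries and 56, 124 and 86 counts in the wild type libraries, or 5.26 ± 1.95 against 16.0 ± 3.59 CPM (n = 3 each, SD), with no overlap. The fit gave -1.60 ± 0.30 on the log2 scale (standard error), with an adjusted p of 0.00122 by edgeR, and the call held under every alternative that was run. The hairpin MIR876, 25.2 kb from that of miR-873, also had no listed arm.

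A list of 67 hairpin names with textbook restriction to a tissue, the 4 miRNAs left out, gave 68 listed and 62 tested miRNAs. The other muscle miRNAs were nearly all unlisted. Of the 8 heart and skeletal muscle names, only miR-499a-5p and miR-133b were listed, 1 lower and 1 higher. miR-133b, a skeletal muscle miRNA, had 29, 24 and 23 counts in the ΔTUT4/7 libraries and 7, 19 and 14 counts in the wild type libraries. The groups did not overlap in CPM (5.20 ± 0.445 against 2.40 ± 0.820), and the fit gave 1.11 ± 0.33 on the log2 scale (standard error), with an adjusted p of 0.0153 by edgeR. This call was lost with DESeq2, with limma and without wild type replicate 1.

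Over the whole list, 7 of 62 tested miRNAs rose at least 2-fold with an adjusted p under 0.05 (11.3%, against 16.5% of all 826 tested miRNAs), 20 fell (32.3%, against 13.6%) and 35 passed neither call. Arms were counted singly, and some calls are arms of the same hairpin, such as those of miR-34b, miR-34c and miR-142 among the falls. Related hairpins of the same family were also counted singly, such as miR-34b with miR-34c, and miR-200a with miR-200b and miR-429. The calls are therefore not all separate observations. In 29 of the 62, all ΔTUT4/7 libraries lay below all wild type libraries, and in 16 of the 62 all lay above. Among all 826 tested miRNAs, 29.5% lay below in this way and 28.8% above. The median log2 fold change of the list was -0.28, and that of all tested miRNAs 0.01. With let-7 and miR-98 left out of the library totals, the list had 10 higher and 15 lower calls among its 62 tested miRNAs. All 826 tested miRNAs then had 183 higher and 81 lower calls. The share of higher among all calls in the table moved from 54.8% to 69.3%, and the median of all tested miRNAs moved to 0.23. Lower calls outnumbered higher calls on the list under both scalings.

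Of the 7 that rose, 3 are miRNAs of neurons, 2 of epithelium, 1 of endocrine cells and 1 of muscle. The group of neurons and glia had as many lower as higher calls, 3 each of 22 tested (13.6%). miR-129-1-3p and miR-129-2-3p, from neuronal hairpins, rose with log2 fold changes of 2.47 (standard error 0.33) and 2.29 (standard error 0.31), but share their first 18 nt and are not separate observations. The other arm, miR-129-5p, rose by 2.27 on the log2 scale (standard error 0.23). The calls of these miR-129 arms held under every alternative that was run. The neuronal miR-488-3p (-1.48) and miR-9-5p (-1.04) were called lower, the latter not without knockout replicate 2 or wild type replicate 1. miR-7-5p, abundant in endocrine cells and neurons, rose from 43.1 ± 10.6 to 214.1 ± 8.97 CPM, or 2.31 ± 0.20 on the log2 scale (standard error), with an adjusted p of 2.33e-06 by edgeR. The wild type means of 2.24 CPM for miR-129-1-3p, 2.34 CPM for miR-129-2-3p and 43.1 CPM for miR-7-5p were all above the 0.801 CPM of miR-504-5p.

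The largest falls on the list exceeded these rises in size. Among miRNAs of ciliated cells and testis, miR-34c-5p fell from 221.8 ± 47.1 to 2.53 ± 0.559 CPM (log2 fold change -6.44, standard error 0.27), with -6.82 for miR-34b-5p -6.20 for miR-34b-3p and -5.76 for miR-34c-3p. The other 3 tested miRNAs of that group, of the miR-449 family, were not called and had log2 fold changes of 0.25 for miR-449a, 0.82 for miR-449b-5p and 0.89 for miR-449c-5p. Among epithelial miRNAs, the log2 fold changes were -5.36 for miR-429, -4.42 for miR-200b-3p and -3.39 for miR-200a-3p, all members of the miR-200 family that restrains the epithelial to mesenchymal transition. The other tested arms of that family were not called lower. miR-200c-5p (2.06) and miR-141-5p (1.37) are the 2 epithelial miRNAs called higher, and miR-200c-3p (0.14) and miR-141-3p (-0.35) were not called. In the eye and melanocyte group, miR-204-5p had -2.63 and miR-211-5p -3.93, and these differ at only 2 of their first 18 nt. The pancreatic miR-216a-5p (-3.07) and miR-217-5p (-2.45) also fell, as did miR-143-3p (-2.51), a miRNA of smooth muscle. These falls of ciliated, epithelial, eye, pancreatic and smooth muscle miRNAs had edgeR adjusted p from 3.39e-09 to 0.00383, although the calls of miR-211-5p and miR-217-5p were lost, like that of miR-200c-5p, when more low counts were filtered out.

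Some calls on the list were less stable. miR-218-2-3p, of neurons, had no ΔTUT4/7 count and 18 wild type counts, at least 5.23-fold lower (at least 3.41-fold without knockout replicate 1), and its call was lost without wild type replicate 2 or 3. The liver miRNA miR-122-5p had a log2 fold change of -1.63 with an adjusted p of 0.0491 by edgeR, and its call was lost under 12 alternatives, including the omission of any library other than knockout replicate 1. miR-142-5p (-1.25) and miR-142-3p (-1.05), of blood cells, each lost the call under 5 alternatives, including the omission of wild type replicate 3 or knockout replicate 3 and, for miR-142-5p, of knockout replicate 1. The cartilage miRNA miR-140-5p (-1.01) lost it under 6, again including wild type replicate 3 or knockout replicate 3.

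**Figure D4:**
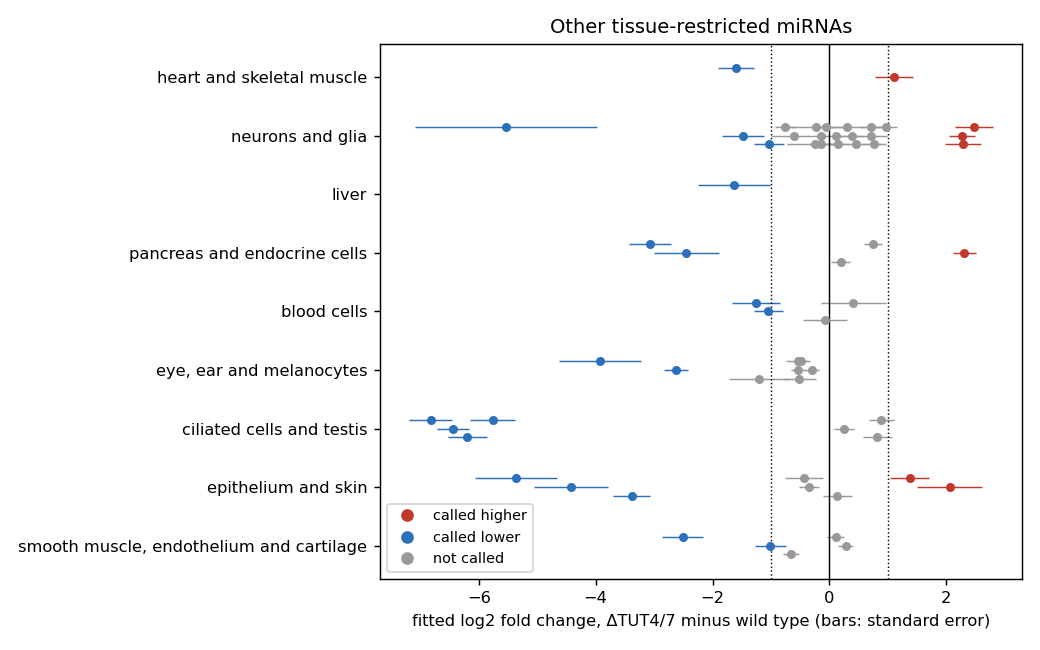
Fitted log2 fold changes (ΔTUT4/7 minus wild type, bars for the standard error) of the 62 tested miRNAs of the tissue list without the 4 described miRNAs, by tissue, with dotted lines at 2-fold. Red points (7) were called higher, blue points (20) lower and grey points (35) neither, and the fitted value of miR-218-2-3p, the neuronal point farthest to the left, depends on the prior count because it had no ΔTUT4/7 count.

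The listed miRNAs with the most similar profile were found by the Euclidean distance over the 6 libraries on log2(CPM + 0.5), a measure that follows both level and fold. For miR-887-3p they were let-7i-3p (distance 0.98), let-7d-3p (1.44) and let-7g-3p (2.56), the 3p arms of let-7 precursors. The libraries of let-7i-3p ran from 154.7 to 197.3 CPM without TUT4/7 and from 3.14 to 6.45 CPM with them, beside 105.2 to 159.5 and 2.76 to 5.76 CPM for miR-887-3p. The ranges of the 2 miRNAs overlapped in both strains.

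miR-504-5p had no neighbour as close. The 3 nearest were let-7b-3p (distance 2.26, 29.6 ± 2.02 against 1.74 ± 0.956 CPM), miR-651-5p (2.38, 47.9 ± 1.49 against 2.18 ± 1.14 CPM) and miR-5682 (2.60, 25.3 ± 3.35 against 1.09 ± 0.308 CPM). All 3 lay below miR-504-5p in ΔTUT4/7 cells. miR-208a-3p and miR-873-5p were each other's nearest (distance 0.45), followed for miR-208a-3p by miR-4435 (0.84) and miR-19b-2-5p (0.84) and for miR-873-5p by miR-19b-2-5p (0.68) and miR-6742-5p (0.82). At their level of 1 to 3 CPM, likeness of profile says little beyond few or no counts in wild type cells.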

How the data were processed

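Small RNA libraries (QIAseq chemistry) came from HEK 293T cells, 3 from each strain. The authors' processing notes name Bowtie 1.0.0, Partek 10.0.22 and hg38. Reads were cut by the authors to a length of 18 nt before alignment and assigned to mature miRBase entries. The use of molecular identifiers is not stated. The deposited table holds estimated counts, made by the authors by expectation-maximization, which are whole numbers and are not normalised. The values of miR-16-5p, the most abundant miRNA, are written there with 3 significant digits where they are largest. The authors' own comparison, with p-values, FDR, ratios, fold changes and strain means, was not used.

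The 4 miRNAs, the tissue list and all tests were chosen with earlier results of these data known. Libraries were assigned to strains from their labels. CPM was taken on each column total. For the 826 miRNAs that exceeded 7 counts in some library, edgeR 4.0.16 (R 4.3.3) gave a quasi-likelihood test over the 6 libraries (normalization factors 1, no covariate) with Benjamini-Hochberg adjustment over all 826, and a miRNA was called at 2-fold or more and an adjusted p under 0.05. The edgeR fit stands in for Partek's gene-specific analysis, and was tested on simulated counts. The 4 miRNAs entered the fit but were given no p. Where a strain had no count, the fold is a bound against 3 counts in the pooled total of that strain. The level of the other strain enters such a bound as counted, without its counting error. Count intervals are exact and shares have Wilson intervals, both at 95% and for counting error only. Alternatives used TMM and RLE factors, library totals free of let-7 and miR-98, DESeq2 1.42.0, limma 3.58.1 on log2(CPM + 1), other filters, a replicate block and the omission of each library.

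Further miRNAs were named by a rule. They are the other arms, listed miRNAs that share bases 2 to 7 or 2 to 8 of a seed or lie within 10 kb, the 3 nearest profiles of each miRNA, up to 3 called miRNAs per tissue with the largest change, listed heart and muscle miRNAs, and those absent from one strain with more than 7 counts in each library of the other. The last part named none, so miR-6742-5p, miR-10399-5p, miR-4798-5p and miR-4423-5p were named after their values were seen, as were further called or related miRNAs of the tissue list (miR-129-5p, miR-488-3p, miR-9-5p, miR-34c-3p and arms of miR-449, miR-200c and miR-141) and miR-4637, miR-6851-3p and miR-3928-3p as nearest neighbours. RefSeq sequences of GRCh38.p14 were found for 897 of the 1000 miRNAs and 3 of the 4, and all 897 equalled hg38 at the deposited coordinates. Host genes were taken from GENCODE. Figures were drawn with matplotlib 3.10.9.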

Additional observations from a re-analysis of the deposited data

How the results depend on the processing

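For miR-504-5p the log2 fold change lay between 5.13 (limma with 1 CPM added) and 6.28 (totals without let-7 and miR-98) under other settings and between 5.71 and 6.65 with 1 library left out. For miR-887-3p it lay between 4.56 and 5.09, and between 4.55 and 5.11. The bounds depended on the wild type depth that sets the floor. With 3 counts in each wild type library as the floor, the bound was 2.59-fold for miR-873-5p and 3.18-fold for miR-208a-3p, and with 1 library left out it ranged from 4.40 to 9.39 and from 5.40 to 12.3. The tissue list had 6 to 10 higher and 14 to 21 lower calls over all alternatives, 7 to 8 and 15 to 19 of them with 1 library left out. The calls over all 826 tested miRNAs moved as well. They were 183 higher and 81 lower with totals without let-7 and miR-98, where the list had 10 and 15. With limma they were 117 and 88, where the list had 6 and 14. The 2-fold limit alone, with no limit on the adjusted p, gave 7 higher and 21 lower on the list. Libraries with the same replicate number did not deviate together (correlations of -0.17, -0.15 and -0.25 over 390 miRNAs). The labels give them no link beyond that number, and the correlations cannot show how the libraries were prepared. A replicate block gave 6.10 for miR-504-5p, 4.86 for miR-887-3p and 7 higher and 17 lower calls on the tissue list. Depth limits miR-208a-3p and miR-873-5p most, since 27 and 22 counts in all carry their values.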

Other observations

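All 4 miRNAs lie in introns of coding genes, and the other tested miRNAs were counted by the same annotation. Among all 826 tested miRNAs, 16.5% were called higher and 13.6% lower. Of 442 others in an intron of a coding gene on the same strand, 48 were called higher (10.9%) and 55 lower (12.4%), with a median log2 fold change of -0.08. Of 86 in an exon of a coding gene, 22 were called higher (25.6%) and 4 lower (4.65%), with a median of 0.54. Of 294 outside coding genes of the same strand, 62 were called higher (21.1%) and 53 lower (18.03%), with a median of 0.10. These are counts of edgeR calls with arms counted singly, and the difference between the places was not tested.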
